A study of Bos taurus with 6 samples.

Results

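The 5 mature miRNAs described here belong to the miR-199 and miR-214 families, and they are bta-miR-199a-3p, bta-miR-199a-5p, bta-miR-199b, bta-miR-199c and bta-miR-214. They were picked by name out of 1030 mature miRNAs listed in 6 cattle liver small RNA libraries, and all 5 were among the 456 that passed the detection filter, which asks for more than 2 counts in 2 or more libraries. The libraries came from Wye Angus steers, 1 library per animal. The 3 grass-fed steers, on alfalfa, hay or pasture, were 21 months old and the 3 grain-fed steers, on corn silage, shelled corn, soybean and minerals, were 14 months old, so diet and age cannot be told apart. All 6 animals came from 1 closed herd and were sampled at market weight. The sequenced RNA came from pieces of whole liver, in which fewer cells of a type and less RNA per cell cannot be told apart.

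Hepatic stellate cells are the liver's vitamin A storing mesenchymal cells, and on injury they turn into myofibroblasts that lay down collagen. In mammals miR-199a and miR-214 are made largely by mesenchymal cells and are known for their rise in fibrotic liver, while hepatocytes are marked by miR-122. An miRNA hairpin can release a mature strand from its 5p arm and another from its 3p arm, and each strand silences its own targets. One copy of miR-199a lies beside miR-214 and shares a long primary transcript with it. In the RefSeq annotation of the later assembly ARS-UCD2.0, the hairpins MIR199A-1 and MIR214 both overlapped the gene DNM3 and the lncRNA LOC132342463. MIR199A-2 overlapped DNM2, MIR199B overlapped DNM1 and MIR199C overlapped NUP88. DNM1, DNM2 and DNM3 encode the dynamins, GTPases that pinch off vesicles from membranes, and NUP88 encodes a nuclear pore protein. RefSeq also places another miRNA hairpin over several of these, MIR3120 over MIR214 and the 2 copies of MIR3604 over MIR199A-2 and MIR199B. The libraries held almost none of these overlapping miRNAs. bta-miR-3604 had 0 counts in each of the 6 libraries, and bta-miR-3120 had 1 count in grass-fed replicate 1 and 0 in the other 5. A count of 0 allows up to 0.489 to 0.784 CPM (counts scaled to a common library total, the usual unit of abundance) in the grass-fed and 3.36 to 6.45 CPM in the grain-fed libraries, for counting error only.

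The libraries differed in miRNA counts with diet, although the study reports nearly equal totals of raw reads for the diets. Fewer of the grain-fed reads were thus counted as miRNA, and the cause of this was not tested. The miRNA counts per library ran from 3824592 to 6133960 in the grass-fed and from 464875 to 892929 in the grain-fed group. TMM scaling in edgeR was applied to the counts, which sets each library by the bulk of its miRNAs, and the levels below are TMM-scaled CPM unless stated. TMM factors ran from 0.692 to 0.996 in grass-fed and from 1.11 to 1.21 in grain-fed libraries, so the scaling itself differed between the diets.

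The 5 names stood for 4 separate profiles, because bta-miR-199c and bta-miR-199a-3p were listed under the same 3 hairpins, with counts that differed by at most 1. Their largest counts were equal in 5 libraries and differed by 1 in grass-fed replicate 1. bta-miR-199a-3p appeared under mir-199a-1, mir-199a-2 and mir-199b. In grass-fed replicate 1, for example, it had 17847 counts under mir-199a-1 and 17812 under each of the other two. Over the 6 libraries the count under mir-199a-2 was lower than under mir-199a-1 by at most 35, and the count under mir-199b was the same as under mir-199a-2. These near-equal counts do not tell which hairpin the 3p strand came from. bta-miR-199a-5p was listed under both miR-199a hairpins with counts that differed by at most 2. bta-miR-199b, the other strand of the mir-199b hairpin, and bta-miR-214 were each listed under 1 hairpin. The value used for each miRNA is its largest count over the hairpins.

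bta-miR-199a-3p had 3757, 4637 and 3377 CPM in grass-fed replicates 1, 2 and 3, from 17847, 19677 and 12865 counts. The grain-fed libraries, in the same order, had 2603, 2318 and 2728 CPM, from 2673, 1637 and 1538 counts. Every grass-fed library was above every grain-fed library. The means were 3924 ± 646 and 2550 ± 211 CPM (SD, n = 3 per diet). On the log2 scale grass-fed exceeded grain-fed liver by 0.62 ± 0.20 (standard error), with FDR = 0.0533 in the quasi-likelihood test of edgeR, adjusted by Benjamini-Hochberg over all 456 miRNAs. bta-miR-199c had the same values, with 3924 ± 646 and 2550 ± 211 CPM and the same FDR in edgeR, and was not taken as a second observation.

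bta-miR-199a-5p, the strand from the opposite arm, had 3017, 3327 and 2651 CPM in the grass-fed libraries, replicates 1 to 3. Its grain-fed values were 1865, 1944 and 2093 CPM. Again the groups did not overlap. After TMM scaling grass-fed replicate 2 was the highest library for both arms, but by total count it was the lowest grass-fed library for both, at 3208 CPM for the 3p arm and 2302 CPM for the 5p arm, the latter below grain-fed replicate 3 at 2538 CPM. The means of 2998 ± 338 and 1967 ± 116 CPM (SD, n = 3 per diet) differed by 0.61 ± 0.19 (standard error) on the log2 scale, with FDR = 0.0517 in edgeR.

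bta-miR-199b had 294, 420 and 320 CPM in the grass-fed libraries and 302, 258 and 259 CPM in the grain-fed libraries, replicates 1 to 3. The groups overlapped, since grass-fed replicate 1 was below grain-fed replicate 1. The means were 345 ± 66.6 and 273 ± 25.2 CPM (SD, n = 3 per diet), and the log2 fold change of 0.33 (95% interval -0.16 to 0.82) did not pass FDR 0.1 in edgeR (FDR = 0.391).

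bta-miR-214 had 134, 96.6 and 114 CPM in the grass-fed libraries and 107, 113 and 119 CPM in the grain-fed libraries, replicates 1 to 3. The 3 grain-fed libraries lay inside the range of the grass-fed ones. The means were 115 ± 18.7 and 113 ± 5.86 CPM (SD, n = 3 per diet), and the difference of 0.028 on the log2 scale had a 95% interval from -0.48 to 0.54 (FDR = 0.947, edgeR). The grain-fed values rest on 110, 80 and 67 counts, the fewest of the 5 miRNAs.

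**Figure D1:**
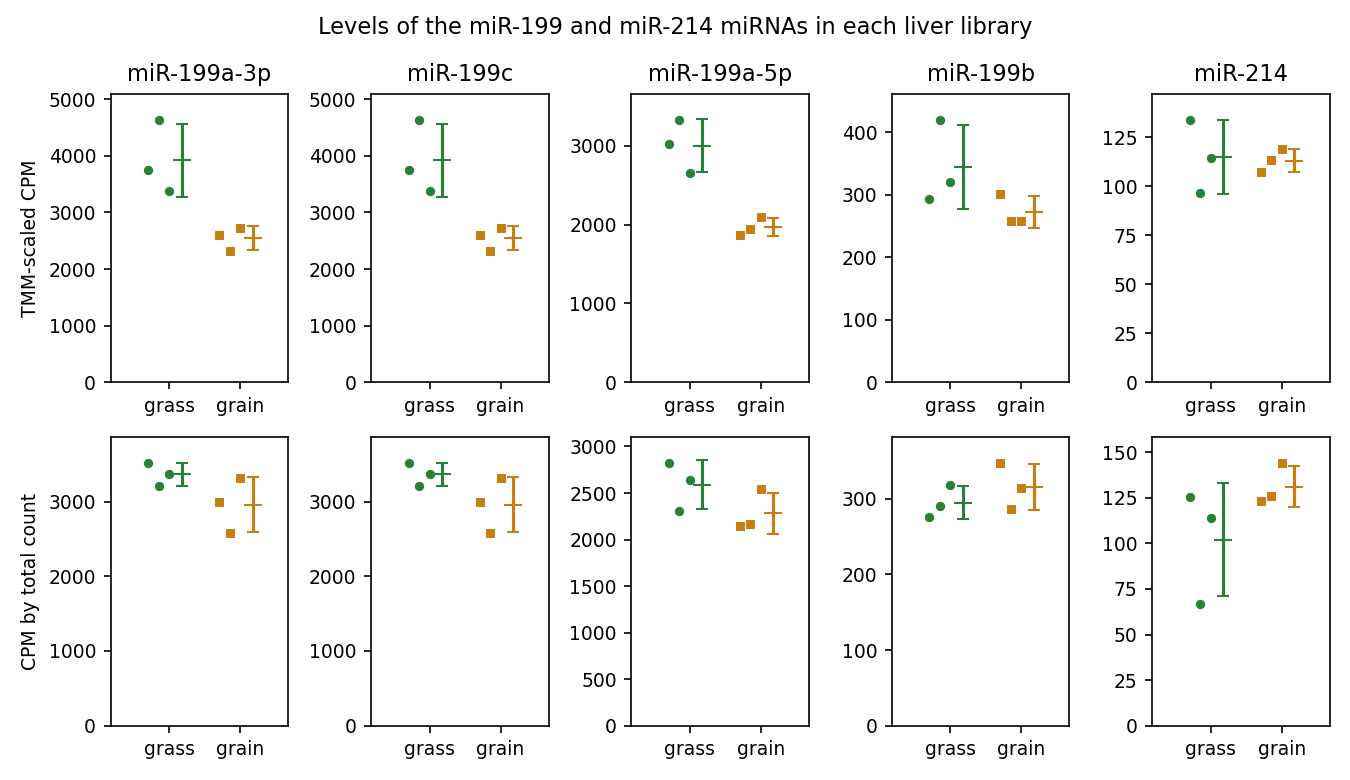
Level of each of the 5 miRNAs in every library, in CPM after TMM scaling (top row) and in CPM by total miRNA count alone (bottom row), with grass-fed libraries as green circles, grain-fed libraries as orange squares and the mean ± SD (n = 3) beside them. After TMM scaling miR-199a-3p, miR-199c and miR-199a-5p do not overlap between the diets, and by total count all 5 do.

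Of the 5 miRNAs, 3 passed FDR 0.1 and all 3 were higher in grass-fed liver. Counted by separate profiles that is 2 of 4. Among all 456 tested miRNAs 19.1% passed, 9.43% as higher and 9.65% as lower in grass-fed liver. The members were chosen with earlier results of these data known, so their count beside these shares is a description and not a test. TMM-scaled ranges that lay wholly above the grain-fed ones were found in the same 3 members, against 19.7% of all tested miRNAs, or 32.9% with ranges apart in either direction. The members were also not at the extreme of the table, since 73.7% of all tested miRNAs had a smaller log2 fold change than bta-miR-199a-3p, 73.0% a smaller one than bta-miR-199a-5p, 59.0% a smaller one than bta-miR-199b and 43.0% a smaller one than bta-miR-214.

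The calls rested on the scaling. With libraries scaled by total count alone none of the 5 passed FDR 0.1 in edgeR, and all 5 overlapped between the diets. In CPM by total count bta-miR-199a-5p was 2588 ± 264 in grass-fed and 2282 ± 222 in grain-fed liver (SD, n = 3 per diet), and its log2 fold change was 0.18 (FDR = 0.611, edgeR). bta-miR-199a-3p also had 0.18 (FDR = 0.594, edgeR), bta-miR-199b turned to -0.10 (FDR = 0.839, edgeR) and bta-miR-214 to -0.36 (FDR = 0.517, edgeR). Upper-quartile scaling moved the values up instead, to 0.79 for bta-miR-199a-5p (FDR = 0.00473, edgeR) and 0.51 for bta-miR-199b (FDR = 0.0986, edgeR), so that 4 of the 5 passed. The whole table moved with them. Over all tested miRNAs the median log2 fold change stood at 0.13 after TMM, 0.31 after upper-quartile scaling and -0.29 by total count, and the calls over all miRNAs were 43 higher and 44 lower after TMM, 82 and 42 after upper-quartile scaling, and 9 and 65 by total count. A change of library scaling shifts the log2 fold changes of all miRNAs by nearly the same amount, so a member's distance from the median is nearly fixed by construction and is no sign of a stable call. Over the TMM, RLE, upper-quartile and total-count scalings bta-miR-199a-5p lay 0.47 to 0.48 above the median, bta-miR-199a-3p 0.47 to 0.49 above it, bta-miR-199b 0.18 to 0.20 above it, and bta-miR-214 lay 0.07 to 0.11 below it. The calls for miR-199a also rested on single libraries. Without grass-fed replicate 1, grain-fed replicate 1 or grain-fed replicate 2, FDR in edgeR was 0.124, 0.184 and 0.197 for bta-miR-199a-5p and 0.104, 0.149 and 0.257 for bta-miR-199a-3p, and the log2 fold changes without any 1 library lay between 0.47 and 0.63 for both.

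**Figure D2:**
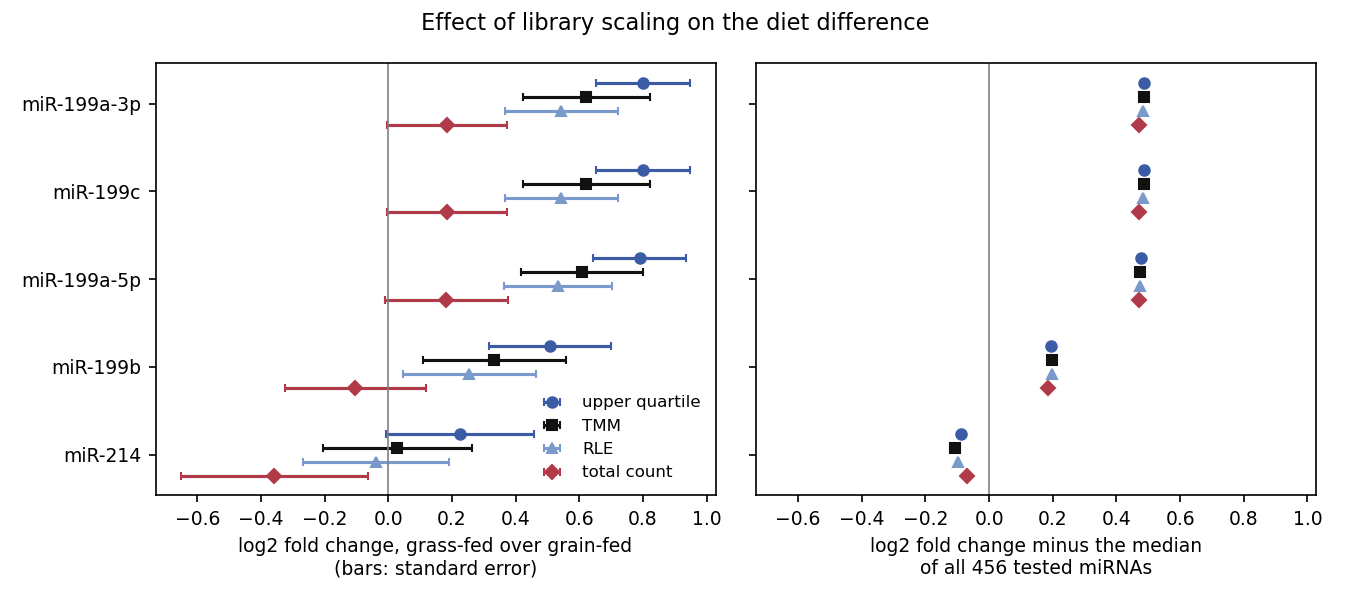
Log2 fold change of each miRNA, grass-fed over grain-fed, under 4 library scalings with standard errors (left), and the same value minus the median of all tested miRNAs (right). On the left miR-199a-5p runs from 0.18 to 0.79 and miR-214 from -0.36 to 0.23, while on the right the 4 points of each miRNA nearly coincide, which follows from how scaling shifts all miRNAs together.

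Ratios of counts within a library do not depend on library scaling, so they were used to ask whether the members kept their proportions. In total 8 ratios were compared between the diets by two-sided exact permutation tests, where 3 libraries against 3 cannot give a p below 0.1. The first 3, against bta-miR-199a-5p among the members, were planned, and the other 5 were added after the values were seen. Among single miRNAs 32.9% of all tested had ranges apart between the diets after TMM scaling. The share of separated ranges was not worked out for ratios of other miRNA pairs. Ranges apart in a ratio below are therefore not shown to be particular to the members.

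No diet difference was found in the arm ratio of miR-199a. The 3p arm made up 55.5%, 58.2% and 56.0% of the reads of both arms in the grass-fed libraries and 58.3%, 54.4% and 56.6% in the grain-fed libraries, replicates 1 to 3. The Wilson 95% intervals, which cover counting error only, were 54.9% to 56.0% in grass-fed replicate 1 and 57.7% to 58.7% in grass-fed replicate 2. These libraries of 1 diet thus differed by more than counting error, and with 1 library per animal the animal and the library preparation cannot be told apart. The 3p arm had more reads in 6 of 6 libraries. Its reads are listed under mir-199b too, whose other strand, bta-miR-199b, is not in the 5p count. The ratio is therefore not that of the miR-199a hairpins alone. The log2 ratio of 3p to 5p counts was 0.38 ± 0.086 in grass-fed and 0.37 ± 0.11 in grain-fed liver (SD, n = 3 per diet), a difference of 0.0092 (exact permutation p = 1.0, adjusted p = 1.0 over 8 ratios).

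bta-miR-214 was lower relative to bta-miR-199a-5p in every grass-fed library than in any grain-fed library. The reads of bta-miR-199a-5p are listed under both miR-199a hairpins, and only mir-199a-1 lies beside mir-214. The ratio therefore cannot be read as that of the 2 neighbouring hairpins. For every read of bta-miR-199a-5p there were 0.0444, 0.0290 and 0.0431 reads of bta-miR-214 in the grass-fed libraries, against 0.0574, 0.0583 and 0.0568 in the grain-fed libraries. The grain-fed libraries were nearly equal, and the grass-fed ones were spread more widely. The log2 ratio was -4.71 ± 0.34 and -4.12 ± 0.019 (SD, n = 3 per diet), so that bta-miR-214 was 1.51 times as abundant relative to bta-miR-199a-5p in grain-fed liver (exact permutation p = 0.1, the smallest that 3 against 3 allows, adjusted p = 0.16). Grass-fed replicate 2 had the lowest ratio, and without any 1 library the difference of log2 ratios lay between -0.70 and -0.40. Against bta-miR-199a-3p the same ratio was 1.52 times as high in grain-fed liver (exact permutation p = 0.1, adjusted p = 0.16), again without overlap.

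bta-miR-199b stood between the others. It had 0.0975, 0.126 and 0.121 reads for every read of bta-miR-199a-5p in the grass-fed libraries and 0.162, 0.133 and 0.124 in the grain-fed libraries, and these overlapped (exact permutation p = 0.2, adjusted p = 0.229). Against bta-miR-199a-3p it was 1.22 times as high in grain-fed liver with no overlap (exact permutation p = 0.1, adjusted p = 0.16), but the nearest libraries of the groups were almost equal, at 0.0948 in grass-fed replicate 3 and 0.0949 in grain-fed replicate 3.

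**Figure D3:**
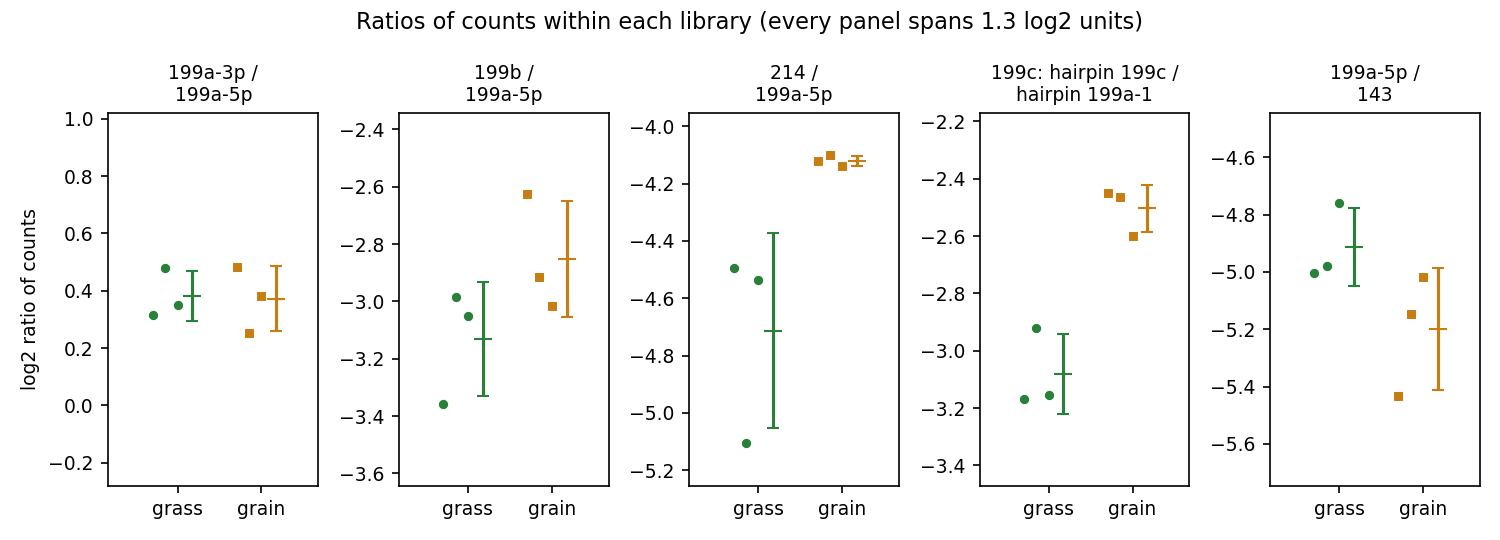
Log2 ratio of counts within each library for 5 of the 8 ratios, grass-fed as green circles, grain-fed as orange squares, with the mean ± SD (n = 3). The arm ratio of miR-199a overlaps fully, while miR-214 over miR-199a-5p and the share of miR-199c reads on its own hairpin are higher in all 3 grain-fed libraries than in any grass-fed library.

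The hairpin rows of bta-miR-199c held a further difference that the largest count leaves out. bta-miR-199c is the only member listed under mir-199c, and its reads there were fewer than under mir-199a-1. For every 100 counts under mir-199a-1 there were 11.1, 13.2 and 11.2 under mir-199c in the grass-fed libraries and 18.3, 18.1 and 16.5 in the grain-fed libraries, replicates 1 to 3. The groups did not overlap. The log2 ratio was -3.08 ± 0.14 in grass-fed and -2.50 ± 0.082 in grain-fed liver (SD, n = 3 per diet), which makes the mir-199c row 1.49 times as high relative to the mir-199a-1 row in grain-fed liver (exact permutation p = 0.1, adjusted p = 0.16). The rows give no read sequences, so which reads fit the mir-199c hairpin was not analysed here.

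The order of the levels was the same in 6 of 6 libraries, with bta-miR-199a-3p above bta-miR-199a-5p, then bta-miR-199b, then bta-miR-214. Mature miRNAs are of nearly equal length, but ligation of adapters favours some ends over others, so a difference of counts between strands is not a difference of molecules. By mean CPM bta-miR-199c and bta-miR-199a-3p ranked 25 and 26 among the 456 tested miRNAs, bta-miR-199a-5p ranked 31, bta-miR-199b 91 and bta-miR-214 127. The members other than bta-miR-199c, a repeat, took 0.674%, 0.587% and 0.644% of all miRNA counts in the grass-fed libraries and 0.561%, 0.515% and 0.630% in the grain-fed libraries, and these overlapped. The total of all miRNA counts still holds the repeated counts of bta-miR-199c. The arms of miR-199a made up 93.3% to 94.1% of the members' counts in grass-fed and 91.6% to 92.7% in grain-fed libraries.

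Over the 6 libraries, and as a description, the log2 CPM of bta-miR-199a-3p and bta-miR-199a-5p had a Pearson correlation of 0.971, or 0.852 after each diet's mean was taken off. bta-miR-214 had correlations of -0.197 to bta-miR-199a-3p, -0.042 to bta-miR-199a-5p and -0.656 to bta-miR-199b. With each diet's mean taken off these were -0.526, -0.239 and -0.939. The points share the scaling factor of each library. The miRNAs closest to the mean log2 CPM of the 4 separate members, out of 255 with a mean of at least 10 CPM, were bta-miR-328, bta-miR-191, bta-miR-125a, bta-miR-29a and bta-miR-128, with Pearson correlations of 0.997, 0.995, 0.992, 0.989 and 0.978 over 6 libraries. After each diet's mean was taken off the correlations were 0.991, 0.964, 0.992, 0.924 and 0.898 in the same order. Of these 5, bta-miR-29a had the smallest log2 fold change, 0.49 (FDR = 0.130, edgeR), and bta-miR-128 the largest, 1.82 (FDR = 0.00290, edgeR).

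Other miRNAs linked to stellate cells and fibrosis were set beside the members. The lists here and below were written from general knowledge, but with earlier results of these data known. Their counts of calls beside the shares of all tested miRNAs are a description and not a test. Among all 456 tested miRNAs 19.1% passed FDR 0.1 after TMM scaling. In the list of 7 miRNAs known to rise in activated stellate cells, 1 rose, 0 fell and 6 did not pass FDR 0.1 in edgeR, and the median log2 fold change was 0.17 beside 0.13 for all tested miRNAs. The 1 was bta-miR-221, which targets cell cycle inhibitors and had 121 ± 46.7 CPM in grass-fed and 51.5 ± 18.7 CPM in grain-fed liver (SD, n = 3 per diet), which is 1.18 on the log2 scale (FDR = 0.0493, edgeR). Its call was lost by total count (0.73, FDR = 0.227, edgeR) and without grass-fed replicate 1, grass-fed replicate 2, grain-fed replicate 2 or grain-fed replicate 3 (FDR between 0.171 and 0.263, edgeR). bta-miR-21-5p, an abundant miRNA known for its rise in fibrosis, had 53284 ± 13531 and 46361 ± 5728 CPM (SD, n = 3 per diet), which is 0.20 on the log2 scale (FDR = 0.603, edgeR), which was -0.19 by total count. By total count the list had 0 higher calls and a median of -0.23, and bta-miR-27a-3p was lower (-0.75, FDR = 0.0371, edgeR), as it also was where 10 counts were asked for in 3 libraries (-0.47, FDR = 0.0837, edgeR).

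In the list of 15 miRNAs known for their loss in fibrosis or for restraining stellate cells, 14 were tested. After TMM scaling 1 rose, 2 fell and 11 did not pass, beside 9.43% higher and 9.65% lower over all tested miRNAs. The median log2 fold change of the list was -0.047 after TMM scaling. By total count 1 rose and 3 fell with a median of -0.41, and after upper-quartile scaling 2 rose and 1 fell with a median of 0.16. bta-miR-122, the main hepatocyte miRNA, rose by 1.12 on the log2 scale (FDR = 0.00417, edgeR), or by 0.67 by total count (FDR = 0.00865, edgeR). bta-miR-16b, a repressor of cell cycle genes, fell, at -0.83 on the log2 scale (FDR = 0.0235, edgeR), and bta-miR-146a, a brake on inflammatory signalling, fell at -0.67 (FDR = 0.0920, edgeR). Its call held without grass-fed replicate 1 (FDR = 0.0192, edgeR) and was lost without each of the other 5 libraries (FDR between 0.121 and 0.199, edgeR). It was also lost after upper-quartile scaling (-0.49, FDR = 0.172, edgeR), with the replicate block (-0.71, FDR = 0.122, edgeR) and where only 1 count in any library was asked for (-0.68, FDR = 0.131, edgeR). The miR-29 miRNAs, which repress collagen genes, did not pass FDR 0.1. On the log2 scale they were at 0.49 for bta-miR-29a, -0.29 for bta-miR-29b, 0.55 for bta-miR-29c and 0.76 for bta-miR-29d-3p (FDR = 0.130, 0.513, 0.413 and 0.290, edgeR). bta-miR-29a was called after upper-quartile scaling (FDR = 0.0132, edgeR).

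Among the 13 miRNAs of the mesenchymal list 2 rose, 0 fell and 11 did not pass, beside 9.43% higher and 9.65% lower over all tested miRNAs. The median log2 fold change of the list was 0.12, or -0.30 by total count. The summed level of the list was 106000 to 144700 CPM in grass-fed and 97750 to 111100 CPM in grain-fed libraries, and these overlapped. bta-miR-145, which favours the contractile state of smooth muscle, had 2452 ± 536 and 1150 ± 164 CPM (SD, n = 3 per diet), a log2 difference of 1.09 (FDR = 0.00599, edgeR). bta-miR-125b had 2892 ± 89.8 and 1288 ± 349 CPM (SD, n = 3 per diet), a log2 difference of 1.17 (FDR = 0.00329, edgeR). Both were also called by total count, at 0.66 and 0.75 (FDR = 0.0648 and 0.0764, edgeR). bta-miR-143, which shares a cluster with bta-miR-145, differed by 0.33 (FDR = 0.271, edgeR), which was -0.10 by total count. After upper-quartile scaling it was called at 0.50 and bta-miR-99a-5p at 0.44 (FDR = 0.0341 and 0.0847, edgeR). The lowest of the list was bta-miR-503-5p at -1.31 (FDR = 0.181, edgeR), which limma-voom called lower. Its levels were low, at 2.27 ± 0.946 CPM in grass-fed and 6.14 ± 2.52 CPM in grain-fed liver (SD, n = 3 per diet). Relative to bta-miR-143 within a library, bta-miR-199a-5p was 1.22 times as high in grass-fed as in grain-fed liver, without overlap (exact permutation p = 0.1, adjusted p = 0.16). The nearest libraries were almost equal, at 0.0311 in grass-fed replicate 1 and 0.0309 in grain-fed replicate 3. bta-miR-143 was picked for this ratio after the values were seen, and the ratio does not stand for the list. After TMM scaling bta-miR-145 and bta-miR-125b had larger log2 fold changes than bta-miR-199a-5p at 0.61, and the 11 that did not pass had smaller ones. Relative to bta-miR-122, bta-miR-199a-5p was 0.706 times as high in grass-fed liver, and the libraries overlapped (exact permutation p = 0.2, adjusted p = 0.229).

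Markers of other cells were measured in the same libraries, in which 19.1% of all tested miRNAs passed FDR 0.1 after TMM scaling. The 4 hepatocyte miRNAs summed to 516600 to 820700 CPM in grass-fed and 328200 to 389800 CPM in grain-fed libraries, and after TMM scaling bta-miR-122 and bta-miR-192 passed FDR 0.1 as higher, with a median log2 fold change of 0.55 for the list. By total count bta-miR-122 alone passed, bta-miR-192 was at 0.22 (FDR = 0.468, edgeR) and the median was 0.10. The other hepatocyte miRNAs were not called under either scaling. bta-miR-194 went the other way, at -0.43 after TMM scaling (FDR = 0.300, edgeR) and -0.79 by total count (FDR = 0.124, edgeR). bta-miR-148a was at 0.46 after TMM scaling (FDR = 0.212, edgeR) and -0.011 by total count (FDR = 0.970, edgeR). The 2 endothelial miRNAs and the 5 leukocyte miRNAs had 0 calls in edgeR after TMM scaling, with summed levels of 11450 to 16150 and 743 to 993 CPM in grass-fed and of 9475 to 14330 and 943 to 1132 CPM in grain-fed libraries. By total count the leukocyte miRNAs bta-miR-223 and bta-miR-150 were lower in grass-fed liver, at -1.04 and -0.91 on the log2 scale (FDR = 0.0455 and 0.0434, edgeR). Both were also called lower where 10 counts were asked for in 3 libraries (FDR = 0.0715 and 0.0637, edgeR), DESeq2 called bta-miR-150 lower (-0.58, FDR = 0.0689), and bta-miR-142-3p was called lower with the replicate block (-1.02, FDR = 0.0910, edgeR) and without grain-fed replicate 1. The leukocyte list was not uniform. bta-miR-155 went the other way after TMM scaling, at 0.40 (FDR = 0.442, edgeR), and was at -0.018 by total count (FDR = 0.979, edgeR). bta-miR-142-5p was at -0.13 (FDR = 0.766, edgeR) and -0.56 (FDR = 0.142, edgeR) in the same order. The 3 erythroid miRNAs had 0 calls after TMM scaling, at 419 to 643 CPM in grass-fed and 465 to 665 CPM in grain-fed libraries, and by total count bta-miR-451 was lower (-0.78, FDR = 0.0434, edgeR). Of the 5 biliary miRNAs bta-miR-200b rose and bta-miR-141 fell after TMM scaling, with sums of 599 to 880 and 442 to 704 CPM. By total count bta-miR-141 was still called lower, and bta-miR-200b was at 0.69 (FDR = 0.115, edgeR). The 2 tested skeletal muscle miRNAs had 0 calls after TMM scaling, at 312 to 522 and 195 to 352 CPM, and bta-miR-1 was called higher after upper-quartile scaling (0.91, FDR = 0.0391, edgeR), with limma-voom and without grain-fed replicate 1. The call of bta-miR-192 was lost without grain-fed replicate 1 or grain-fed replicate 2. Each of these lists was detected in both diets, and their part in the levels of the miR-199 and miR-214 miRNAs was not tested.

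**Figure D4:**
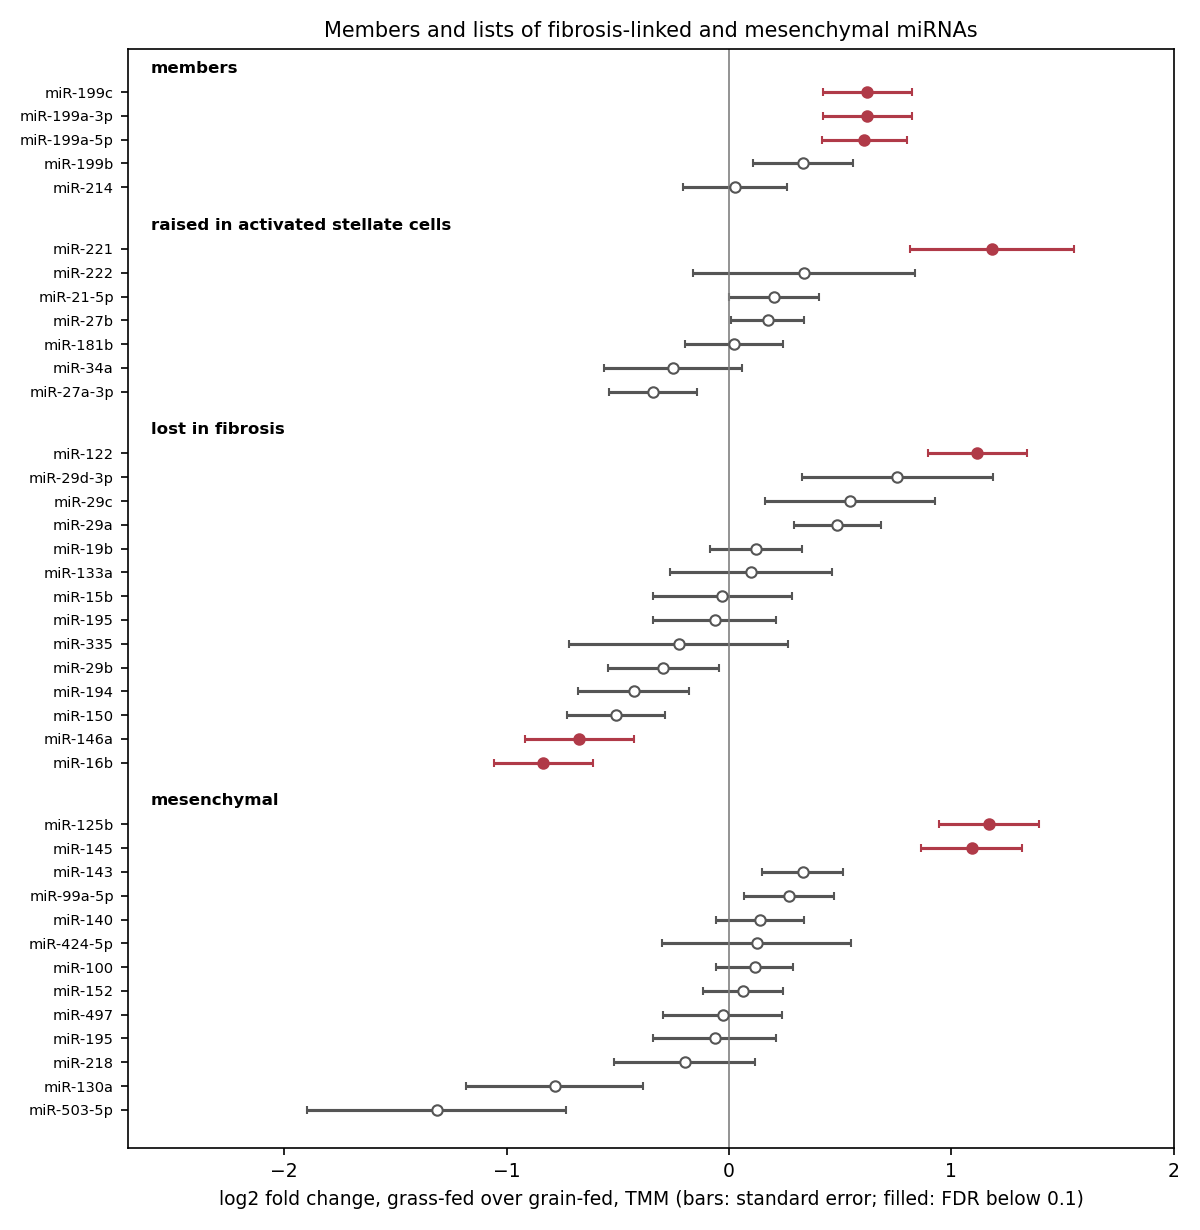
Log2 fold change with its standard error, grass-fed over grain-fed after TMM scaling, for the 5 members and for the 3 lists of fibrosis-linked and mesenchymal miRNAs, with filled red points for those below FDR 0.1 in edgeR. miR-199a sits at 0.61 to 0.62, below miR-221, miR-122, miR-125b, miR-145 and the uncalled miR-29d-3p, and above miR-143 and miR-21-5p.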

How the data were processed

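Small RNA of 3 grass-fed and 3 grain-fed steers was sequenced on an Illumina HiSeq. The authors checked quality with FastQC version 0.11.5, removed adapters, low-quality reads and reads outside a length range, mapped the rest to ARS-UCD1.2 and counted the known miRNAs of miRBase with miRDeep2, with version and settings not given in the sources used here. Raw read counts were deposited, 1 for each of 1207 pairs of mature miRNA and hairpin. The deposited CPM divides these by the sum over all pairs and was not used. Groups and replicate numbers come from the sample titles.

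Each mature miRNA took its largest count over hairpins. Those with more than 2 counts in 2 or more libraries were tested by the edgeR quasi-likelihood test (version 4.0.16, R version 4.3.3). TMM scaling, no covariate and FDR 0.1 were used, as the study names edgeR, this filter and this threshold. The study does not name its scaling or edgeR test, and it reports far more miRNAs lower than higher in grass-fed liver. TMM gave 43 higher and 44 lower here. Total-count scaling gave 9 higher and 65 lower, with 0 members called. Standard errors were taken from the log2 fold change and the root of its F statistic. log2 CPM used a prior count of 2. Count ratios were compared with SciPy version 1.17.1, and intervals of shares are Wilson 95% intervals. Alternatives were DESeq2 version 1.42.0, limma-voom (limma version 3.58.1), RLE, upper-quartile and total-count scaling, other filters, the sum over hairpins, FDR 0.05, a block for the replicate number, and leaving out single libraries.

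Named are the 5 members, the 5 miRNAs closest to them by correlation, and members of the lists, which were written from general knowledge. Members and lists were chosen with earlier results of these data known. Mature sequences were not analysed here.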

Additional observations from a re-analysis of the deposited data

How the results depend on the processing

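Of the 5 members 3 were called at FDR 0.1 in edgeR, and 0 with libraries scaled by total count alone, at FDR 0.05 or with the replicate block. By total count the log2 fold changes were 0.18 for both arms of miR-199a and for bta-miR-199c, -0.10 for bta-miR-199b and -0.36 for bta-miR-214. After upper-quartile scaling bta-miR-199b was called at 0.51. bta-miR-214 lay near 0 and turned to -0.041 with DESeq2, -0.040 with RLE scaling, -0.090 where 10 counts were asked for in 3 libraries, and -0.0050 with the sum over hairpins. The sample titles do not say whether the replicate numbers pair the libraries. Deviations of same-numbered libraries correlated at -0.05, -0.20 and -0.01, and 0 of 6 libraries correlated best with their own number. With 3 libraries per diet these values cannot exclude a pairing. With the replicate block the calls over all miRNAs went from 87 to 82, and the log2 fold changes were 0.61, 0.60 and 0.61 for bta-miR-199a-3p, bta-miR-199a-5p and bta-miR-199c (FDR = 0.159, 0.168 and 0.159, edgeR). The causes of these changes were not tested.

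With each library left out in turn, 0 to 3 members and 49 to 86 miRNAs were called, the fewest without grain-fed replicate 2. The log2 fold changes lay between 0.47 and 0.63 for bta-miR-199c and bta-miR-199a-3p, 0.51 and 0.62 for bta-miR-199a-5p, 0.16 and 0.36 for bta-miR-199b, and -0.16 and 0.13 for bta-miR-214, and the arm difference between -0.050 and 0.064. The other planned differences of log2 ratios lay between -0.36 and -0.17 for bta-miR-199b and -0.70 and -0.40 for bta-miR-214, both to bta-miR-199a-5p. Over 17 alternatives, 2 of them added after the values were seen (library sizes without bta-miR-122, and bta-miR-199c left out), bta-miR-199a-5p was higher in 17 and called in 12, with FDR from 0.00473 to 0.611 in edgeR or the other tools.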
